A study of Mus musculus and blank sample with 91 samples.

Results

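By 16S sequencing of mouse feces, 4 families of the order Clostridiales were followed: Clostridiales_vadinBB60, Christensenellaceae, Peptococcaceae and Dehalobacteriaceae-Peptococcaceae. Their members were the amplicon sequence variants (ASVs, the exact sequences that a denoising program infers from the reads) whose deposited taxonomy carries 1 of these 4 family names, and each family was summed per sample. They held 62 of the 2295 ASVs and were 4 of the 26 families. By total counts they ranked 14 (Peptococcaceae), 16 (Clostridiales_vadinBB60), 18 (Christensenellaceae) and 21 (Dehalobacteriaceae-Peptococcaceae) of 26, and together they made up a median of 0.405% and at most 2.19% of a sample's counts.

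The mice were female C57BL/6 (bought from a commercial breeder as C57BL/6J at 8 weeks of age), housed at 2 to 3 per cage, with treatment assigned to whole cages. EAE mice were injected under the skin with MOG35–55, a peptide of a myelin protein, in Complete Freund's Adjuvant and also got pertussis toxin, which yields experimental autoimmune encephalomyelitis, a model of multiple sclerosis with ascending paralysis. CFA mice received the adjuvant without the peptide, no pertussis toxin is listed for them, and naïve mice received nothing, so EAE and CFA mice differed in both peptide and toxin. Feces were collected 2 days before immunization (-2 dpi, days post immunization) and then at 8, 14, 19 and 29 dpi. Each group held 6 mice, apart from EAE at 14 dpi and CFA at 29 dpi with 5 each, since 1 CFA sample of 29 dpi had a total of 0 counts and was left out. Of 89 samples 88 were used (30 naïve, 29 CFA, 29 EAE), and which mice shared a cage is not given in the labels, so cage and treatment cannot be told apart. EAE mice carry other numbers in the sample titles from 14 dpi on (588 to 595) than before (550 to 557), and a subject number in the deposited sample table links both sets.

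Bacteria of this order are mostly strict anaerobes. Christensenellaceae are known from Christensenella minuta and are named in human studies for a link with leanness. The vadinBB60 clade has no well-studied isolate and takes its name from clones of an anaerobic digester. Peptococcaceae are anaerobic cocci and related forms, with Peptococcus niger as the type species of their genus. Dehalobacterium, the genus under Dehalobacteriaceae-Peptococcaceae, was described for growth on dichloromethane. In the deposited taxonomy each family held a single genus and species name: Clostridiales_vadinBB60_NA for the first, Christensenella with Christensenella_CAG-475, Peptococcus-rc4-4 with Peptococcus niger, and Dehalobacterium with Dehalobacterium_NA.

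The deposited ASVs still carry the primer sites, whose mixed bases split 1 organism's sequence into several ASVs, so the ASVs were also compared without the first 17 and the last 21 bases. All 62 member ASVs held both primer sites, and between them lay 13 distinct sequences. The 15 ASVs of Peptococcaceae were 1 single sequence of 428 bases. The 7 ASVs of Dehalobacteriaceae-Peptococcaceae were 2 sequences of 426 and 428 bases, 89.8% identical to each other and at most 83.7% identical to that of Peptococcaceae. The 31 ASVs of Clostridiales_vadinBB60 were 8 sequences of 403 to 406 bases, and the 9 ASVs of Christensenellaceae were 4 sequences of 405 to 406 bases.

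The labels Clostridiales_vadinBB60 and Christensenellaceae did not separate all of these sequences. Of the 13 sequences 2 stood under both names, depending on the primer variant of the ASV. The first, of 406 bases, had 11 ASVs and 2999 counts, was called Christensenellaceae in 10 samples and Clostridiales_vadinBB60 in 6, and in 0 samples carried both names. The second, of 405 bases, had 4 ASVs and 741 counts, with 1 sample under the first name and 3 under the second. These 2 sequences made up 80.7% of the counts named Christensenellaceae and 33.8% of those named Clostridiales_vadinBB60. The first was 99.8 and 91.7% identical to the 2 sequences named Christensenellaceae alone, and at most 88.1% to those named Clostridiales_vadinBB60 alone. The second was 96.5 to 97.3% identical to the first, second and sixth Clostridiales_vadinBB60 sequences by counts. It was 84.1 to 86.2% identical to the others of that name alone, and 87.4 and 86.5% to those of Christensenellaceae alone. In CFA mouse 545 the first shared sequence was listed as Clostridiales_vadinBB60 at -2 dpi and as Christensenellaceae at 8 dpi. In CFA mouse 543 the second shared sequence changed name from 14 to 19 dpi and back from 19 to 29 dpi. Of the 4 intervals in which a shared sequence was present at both ends (2 for each sequence), its name changed in 1 for the first sequence and in 2 for the second. Values below follow the deposited names, and for both families the sum of the pair is given as well, a choice made after seeing the data.

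Totals ran from 9202 to 102437 counts per sample with a median of 64586, and the medians by treatment were 65306.5 (naïve), 65928 (CFA) and 55362 (EAE). The lowest total belonged to EAE mouse 555 at 8 dpi, which held 4 ASVs in all. A count of 0 allows up to 3 counts, that is 0.0326% of the counts in that sample and 0.00464% at the median total, for counting error only. The median total was 64929 with and 64127.5 without Peptococcaceae, and 64953 and 64219 for Clostridiales_vadinBB60. It was 68716 with and 64065 without Christensenellaceae, and 71399 with and 64065 without Dehalobacteriaceae-Peptococcaceae, whose lowest positive sample had 60868 counts. For Clostridiales_vadinBB60 and Christensenellaceae the lowest positive sample had 31179 counts, and for Peptococcaceae 33356. EAE mice 551 and 555 at 8 dpi held no member, at totals of 17439 and 9202. Nor did 589 at 14 dpi (17326) and 595 at 19 dpi (15279). EAE totals at 29 dpi, where all 6 mice held Peptococcaceae, were 62526 or more. Whether depth has a part in these zeros was not tested. Low counts were rare in the members, since the lowest count above 0 was 96 for Peptococcaceae, 33 for Christensenellaceae, 24 for Dehalobacteriaceae-Peptococcaceae and 4 for Clostridiales_vadinBB60. In 28 of the 38 samples with Peptococcaceae all its counts lay in a single one of its 15 primer variants, with at most 3 in a sample. Whether this splitting has a part in the zeros was not tested.

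Peptococcaceae was the most widespread of the 4 families, with 27197 counts in 38 of 88 samples and a median of 1.03% where present (0.120 to 2.05%). It was found in 20 of 30 naïve and 18 of 29 EAE samples. It had no count in any of the 29 CFA samples, which would allow a share of up to 10.3% if they were independent, but they are repeat samples of 6 mice, and 0 of 6 mice allows up to 50%. All 6 naïve mice and all 6 EAE mice (joined by subject number) held it on at least 1 day, and 0 of 6 CFA mice did. CFA mice lacked it before any treatment too: at -2 dpi the family was present in 3 of 6 naïve mice (1.15, 1.08 and 0.612%), in 3 of 6 EAE mice (0.620, 0.732 and 0.945%) and in 0 of 6 CFA mice.

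**Figure D1:**
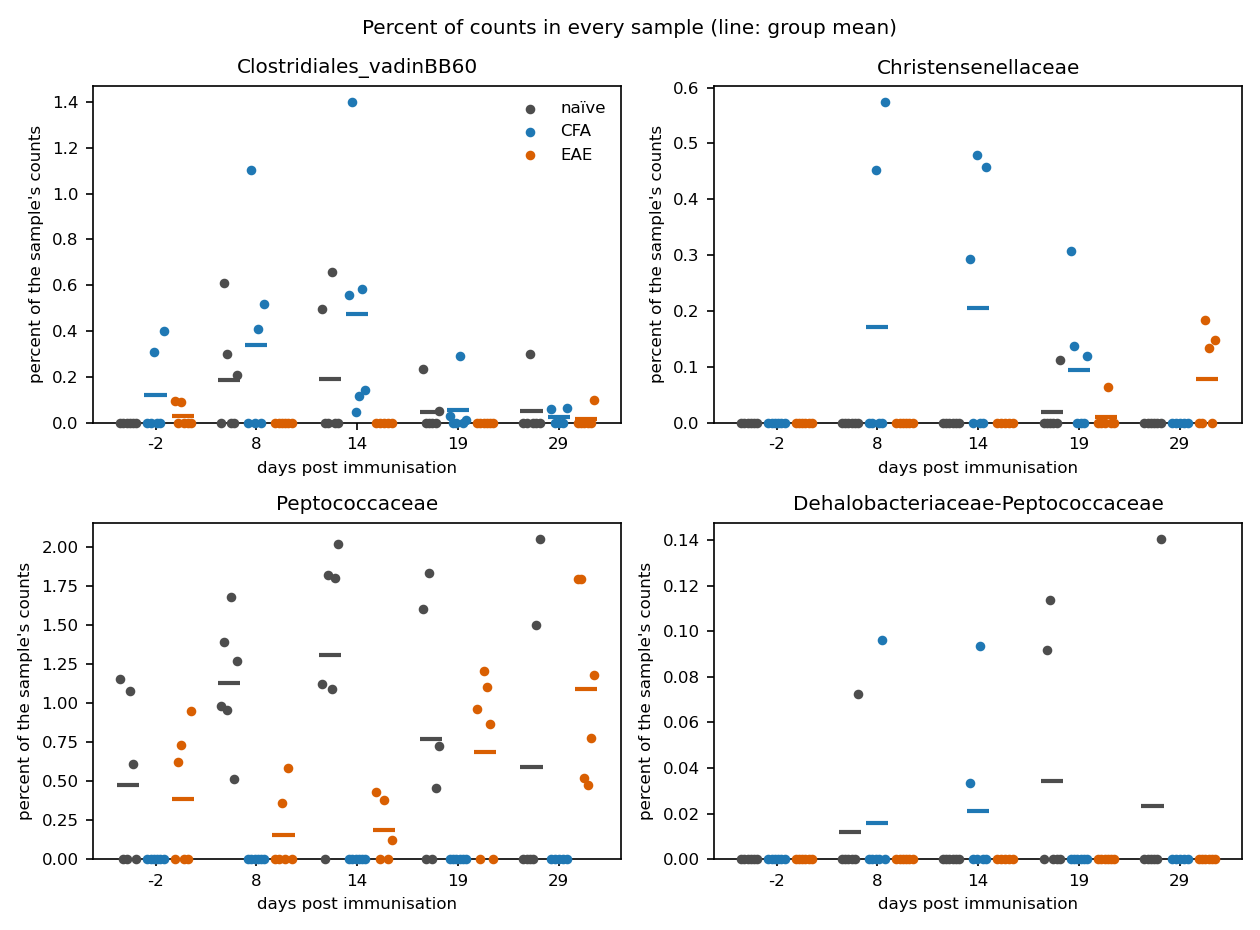
Percent of a sample's counts (y axis, a separate linear scale per family) by days post immunisation (x axis), with 1 point per mouse and a line at each group mean. The CFA points of Peptococcaceae lie at 0 on all 5 days, and those of Clostridiales_vadinBB60 are all above 0 at 14 dpi, where the EAE points lie at 0.

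In naïve mice Peptococcaceae was present in 3 of 6 mice at -2 dpi and then in 6, 5, 4 and 2 of 6 at 8, 14, 19 and 29 dpi. At 8 dpi the naïve values ran from 0.511 to 1.68% with a mean of 1.13 ± 0.406% (SD, n = 6). At 14 dpi 5 of 6 naïve mice lay between 1.09 and 2.02%, and mouse 559 was at 0. By 29 dpi it was left in mice 562 (1.50%) and 563 (2.05%), while the other 4 were at 0. Naïve mice thus varied from 1 day with the family (mouse 559) to all 5 (mouse 562).

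In EAE mice Peptococcaceae was found in 3 of 6, 2 of 6, 3 of 5, 4 of 6 and 6 of 6 mice on the same days. At 8 dpi it was present in mice 553 (0.357%) and 556 (0.581%). At 14 dpi the values were 0.427, 0.380 and 0.120% in mice 588, 591 and 595 and 0 in mice 589 and 593. At 19 dpi 4 mice lay between 0.862 and 1.20%, and at 29 dpi all 6 lay between 0.473 and 1.79%. The EAE means were 0.156 ± 0.252, 0.185 ± 0.205, 0.689 ± 0.546 and 1.09 ± 0.600% at 8, 14, 19 and 29 dpi (SD, n = 6, 5, 6 and 6). Against the 0.383 ± 0.432% of -2 dpi, the 29 dpi mean was 0.706 percentage points higher, with an exact permutation p of 0.0433 that was 0.175 after adjustment over the 26 families.

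Between EAE and naïve mice the values of Peptococcaceae overlapped on every one of the 5 days. At 8 dpi 2 of 6 EAE against 6 of 6 naïve mice held it, and the EAE mean was 0.974 percentage points lower, with a two-sided exact permutation p of 0.00433 (0.113 adjusted over the families). At 14 dpi it was 1.12 points lower (exact permutation p = 0.0238, adjusted 0.0884). At 29 dpi 6 of 6 EAE against 2 of 6 naïve mice held it, with Fisher's exact p = 0.0606 (adjusted 0.394). Over 14, 19 and 29 dpi EAE mice averaged 0.689 ± 0.227% and naïve mice 0.890 ± 0.601% (SD over means per mouse, n = 6 each), with an exact permutation p of 0.461 (adjusted 0.735).

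Against CFA mice, all at 0, both other groups were higher. Over 14, 19 and 29 dpi the EAE means per mouse ran from 0.433 to 1.06%, and none overlapped with CFA (exact permutation p = 0.00216, the smallest that 6 against 6 mice allow, adjusted 0.00703). The naïve means ran from 0 (mouse 559) to 1.60% and differed from CFA with an exact permutation p of 0.0152 (adjusted 0.0985). Leaving out mouse 559, the only naïve mouse at 0, removed all overlap by that choice, and the adjusted exact permutation p was then 0.0188. By day, naïve exceeded CFA at 8 dpi with an adjusted exact permutation p of 0.0281. The naïve mean there was 219-fold above the mean floor of 3 counts per CFA library. The EAE mean at 29 dpi was 267-fold above the CFA floor of that day, with an adjusted exact permutation p of 0.0563. This floor covers counting error only, and the lowest count of the family above 0 was 96, so these folds are no lower bounds.

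The edgeR fit of all families (a count model with 15 groups, 23 families tested) called Peptococcaceae lower in CFA than in naïve mice on all 5 days, with adjusted p from 0.00214 at 8 dpi to 0.0160 at 29 dpi. It also called it higher in EAE than in CFA mice on all 5 days, with adjusted p from 0.00498 at 19 dpi to 0.0129 at -2 dpi. At -2 dpi, 4 of the 69 tests over the 3 pairs of groups were called (5.80%), of which 2 were these of Peptococcaceae and the other 2 belonged to a family outside the order. The 2 calls of -2 dpi were lost when the compared groups alone were fitted (edgeR adjusted p = 0.0776 against naïve and 0.0922 against EAE mice), and 3 of 6 against 0 of 6 mice passed no exact test (Fisher's exact p = 0.182 for each pair). Its change since -2 dpi did not pass between EAE and naïve mice (edgeR adjusted p from 0.746 to 1.00), and against CFA mice, at 0 throughout, it could not be tested. The difference from CFA mice measured after immunization thus had the same sign before it.

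Gains and losses between consecutive samples of a mouse were counted for each family. For Peptococcaceae naïve mice kept it in 14 of 24 intervals, lost it in 4 and gained it in 3. EAE mice kept it in 8 of 22 intervals, lost it in 3 and gained it in 6. CFA mice were without it at both ends of all 23 intervals.

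**Figure D2:**
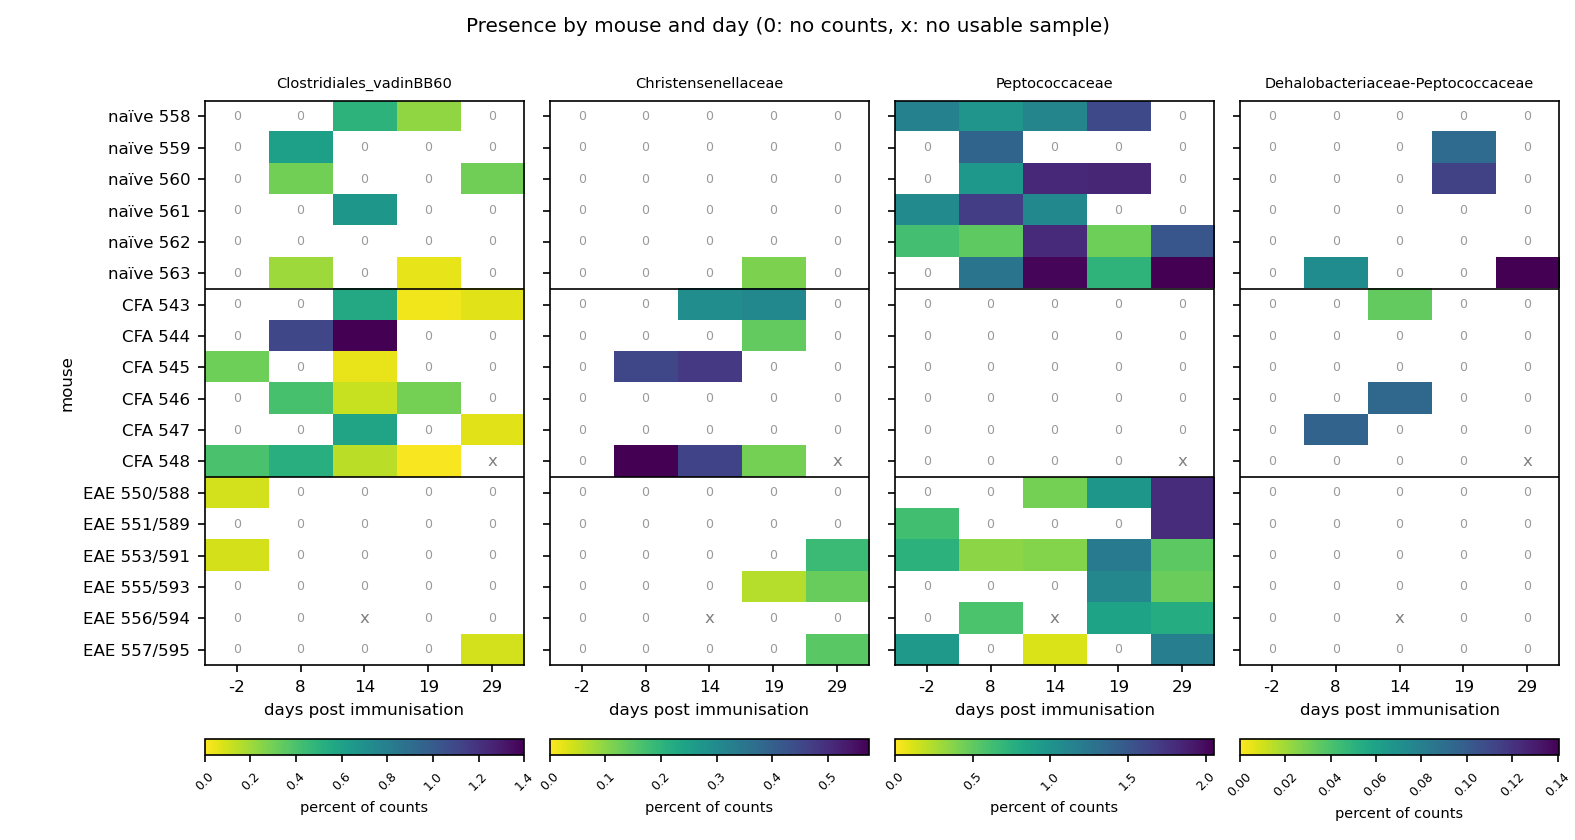
Each row is a mouse and each column a day in days post immunisation, with colour for the percent of counts (a separate scale per family), 0 for no counts and x for no usable sample. Peptococcaceae has counts in every naïve and EAE row and in none of the 6 CFA rows, and no EAE row holds Dehalobacteriaceae-Peptococcaceae.

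Clostridiales_vadinBB60 had 5712 counts in 27 samples and a median of 0.291% where present (0.0111 to 1.40%). It was found in 16 of 29 CFA, 8 of 30 naïve and 3 of 29 EAE samples. All 6 CFA mice held it on 2 to 4 days, 5 of 6 naïve mice on 1 or 2 days and 3 of 6 EAE mice on 1 day each.

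In CFA mice it was present in 2, 3, 6 and 3 of 6 mice at -2, 8, 14 and 19 dpi and in 2 of 5 at 29 dpi. At 14 dpi the values were 0.556, 1.40, 0.0472, 0.116, 0.585 and 0.143% in mice 543 to 548. The highest came from mouse 544, which also led at 8 dpi with 1.10%. At 19 dpi the 3 values were 0.0291, 0.291 and 0.0111%, and at 29 dpi they were 0.0605 and 0.0630%. The CFA mean went from 0.474 ± 0.509% at 14 dpi (SD, n = 6) to 0.0247 ± 0.0338% at 29 dpi (SD, n = 5).

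In EAE mice it was present before immunization in mice 550 (0.0939%) and 553 (0.0878%) and then in 0 of 6, 0 of 5 and 0 of 6 mice at 8, 14 and 19 dpi. At 29 dpi mouse 595 alone held it, at 0.0972%. Both early carriers lost it by 8 dpi and neither regained it under its subject number, so over 22 intervals EAE mice kept it in 0, lost it in 2 and gained it in 1. CFA mice kept it in 8 of 23 intervals, lost it in 5 and gained it in 6. The loss of mouse 545 from -2 to 8 dpi was a change of name of a shared sequence.

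In naïve mice it was at 0 in all 6 at -2 dpi and present in 3, 2, 2 and 1 of 6 mice afterwards, at up to 0.657% (mouse 561 at 14 dpi). Of 24 naïve intervals it was kept in 1, lost in 6 and gained in 7. Its presence in naïve mice was thus mostly on single days.

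EAE and CFA mice did not overlap at 14 dpi, with 0 of 5 against 6 of 6 mice (Fisher's exact p = 0.00216, adjusted 0.0281). The difference in mean percent on that day did not pass (exact permutation p = 0.0411, adjusted 0.119). The CFA mean there was 75.0-fold above the EAE floor of 3 counts per library, which covers counting error only. Leaving out EAE mouse 588, 591, 593 or 595 in turn ended the call by Fisher's exact test, while it held without mouse 589. Over 14, 19 and 29 dpi the mean per mouse was 0.00540 ± 0.0132% in EAE and 0.188 ± 0.157% in CFA mice (SD, n = 6 each), with an exact permutation p of 0.00433 (adjusted 0.0125). It no longer passed without EAE mouse 588, 589, 591 or 594 (adjusted exact permutation p = 0.0563) or without EAE mouse 595 (0.050). The share of days with the family was 5.56 ± 13.6% in EAE and 66.7 ± 29.8% in CFA mice (exact permutation p = 0.00649, adjusted 0.0338), and it also failed without each of 5 EAE mice (588, 589, 591, 593 and 594), at adjusted p of 0.0563 to 0.0657. EAE and naïve mice did not differ past the threshold in either measure (adjusted exact permutation p = 0.230 and 0.569).

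edgeR called the family lower in EAE than in CFA mice at 8, 14 and 19 dpi (adjusted p = 0.0185, 0.0222 and 0.0340) and lower than in naïve mice at 8 and 19 dpi (0.0316 and 0.0383). The 8 dpi call against naïve mice was lost without the shallowest EAE sample (adjusted p = 0.0603). Both 19 dpi calls were lost once the family was joined with Christensenellaceae (adjusted p = 0.239 against CFA and 0.413 against naïve mice, of which 2 held it). Joined, the call against naïve mice stayed at 8 dpi (edgeR adjusted p = 0.0215). At 14 dpi the joined families were called lower than in naïve mice (0.0369), unlike Clostridiales_vadinBB60 by itself (0.0536). The change since -2 dpi was called lower in EAE than in naïve mice at 8, 14 and 19 dpi (edgeR adjusted p = 0.00962, 0.00877 and 0.00859), that is, 2 of 6 EAE mice lost it while 3, 2 and 2 of 6 naïve mice held it against none before. With the mouse as a replicate block the adjusted p at 8 dpi was 0.250 by title number, and by subject number it was 0.0731, 0.0496 and 0.114 at 8, 14 and 19 dpi. Of these blocked tests the one at 14 dpi passed. With both families joined the adjusted p was 0.00524, 0.00499 and 0.0534, so that the 19 dpi call was lost.

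Its sequences were spread unequally over the treatments, which was described and not tested. The sequence with the most counts (1671) was found in 4 CFA samples of mice 544 and 548 and in 1 naïve sample. The second (1411 counts) was seen in 6 samples of 5 naïve mice and in no CFA or EAE sample, although it is 97.5% identical to the first. The third, with 1402 counts under this family name, is the 406-base sequence shared with Christensenellaceae, found under this name in 5 CFA samples and 1 EAE sample. The sequence seen most often, in 10 samples, was the fourth by counts (579) and occurred in all 3 treatments. Among the 8 sequences identity ran from 83.4 to 98.3%. Of the 27 positive samples 7 held more than 1 of these sequences.

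**Figure D3:**
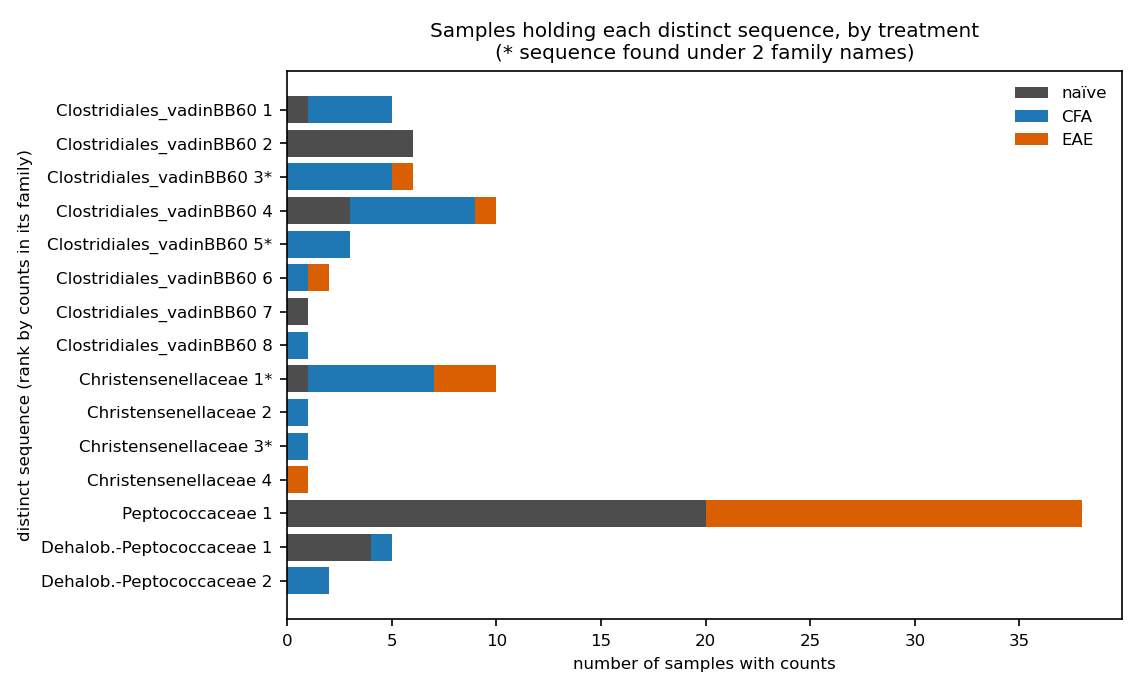
Number of samples (x axis) in which each of the distinct sequences was found, stacked by treatment, with the sequences of each family ranked by counts (y axis) and an asterisk on those listed under 2 family names. The second sequence of Clostridiales_vadinBB60 was found in 6 naïve samples and in none of the others, and the sequence of Peptococcaceae in 20 naïve and 18 EAE samples.

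Christensenellaceae had 2241 counts in 13 samples, each from a single ASV, with a median of 0.183% where present (0.0637 to 0.574%). It was absent from all 18 samples of -2 dpi. It was found in 8 CFA samples of 4 mice, 4 EAE samples of 3 mice and 1 naïve sample.

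In CFA mice it was present in 2, 3 and 3 of 6 mice at 8, 14 and 19 dpi and in 0 of 5 at 29 dpi. At 8 dpi the values were 0.452 and 0.574% (mice 545 and 548). At 14 dpi they were 0.293, 0.479 and 0.458% (mice 543, 545 and 548), and at 19 dpi 0.307, 0.137 and 0.119% (mice 543, 544 and 548). Mouse 548 held it on all 3 of these days, and mice 546 and 547 on none. CFA mice kept it in 4 of 23 intervals, gained it in 4 and lost it in 3. The gain of mouse 545 at 8 dpi was a change of name of a shared sequence. So was the loss of mouse 543 from 19 to 29 dpi.

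In EAE mice it was at 0 in all mice at 8 and 14 dpi, at 0.0637% in mouse 593 at 19 dpi, and at 0.183, 0.134 and 0.148% in mice 591, 593 and 595 at 29 dpi. These mice gained it in 3 of 22 intervals and lost it in 0. Under the other family name its first sequence was already present in EAE mouse 550 at -2 dpi (0.0939%), so its absence from EAE mice at that time holds for the name and not for the sequence. The single naïve sample was mouse 563 at 19 dpi, with 0.113%.

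edgeR called it higher in CFA than in naïve mice at 8 and 14 dpi (adjusted p = 0.0382 and 0.0477), lower in EAE than in CFA mice at 8 and 14 dpi (0.0218 and 0.0301), and higher in EAE than in naïve mice at 29 dpi (0.0447). The exact tests called none of these. Over 14, 19 and 29 dpi CFA mice averaged 0.116 ± 0.119%, EAE mice 0.0293 ± 0.0326% and naïve mice 0.00625 ± 0.0153% (SD over means per mouse, n = 6 each), with adjusted exact permutation p of 0.225 for CFA against naïve and 0.325 for EAE against CFA. When joined with Clostridiales_vadinBB60 the 29 dpi difference between EAE and naïve mice turned to a log2 value of -0.26 (edgeR adjusted p = 0.958). Both calls between CFA and naïve mice were lost too (log2 1.29 and 1.73, edgeR adjusted p = 1.00 and 0.946), while those between EAE and CFA mice held (0.00928 and 0.0147).

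The sum of both families is free of the split in names. It was present in 2, 4, 6 and 4 of 6 CFA mice at -2, 8, 14 and 19 dpi and in 2 of 5 at 29 dpi. In EAE mice it was found in 2 of 6, 0 of 6, 0 of 5, 1 of 6 and 3 of 6. In naïve mice it was found in 0, 3, 2, 2 and 1 of 6. CFA mice kept the sum in 11 of 23 intervals, lost it in 4 and gained it in 5. EAE mice kept it in 1 of 22, lost it in 2 and gained it in 3. Naïve mice kept it in 1 of 24, lost it in 6 and gained it in 7. At -2 dpi edgeR called it higher in CFA than in naïve mice (adjusted p = 0.0348), on 2 of 6 against 0 of 6 mice. At 14 dpi its mean was 0.679 ± 0.425% in CFA mice (SD, n = 6) and every EAE mouse was at 0 (exact permutation p = 0.00433, adjusted 0.0155). Over 14, 19 and 29 dpi the mean per mouse was 0.303 ± 0.150% in CFA, 0.103 ± 0.106% in naïve and 0.0347 ± 0.0387% in EAE mice (SD, n = 6 each). EAE and CFA differed (exact permutation p = 0.00216, adjusted 0.00601), while CFA and naïve did not pass after adjustment (0.0281 and 0.141). Its share of days was 22.2 ± 27.2% in EAE and 72.2 ± 25.1% in CFA mice, which did not pass (adjusted exact permutation p = 0.117).

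Dehalobacteriaceae-Peptococcaceae was the scarcest family, with 474 counts in 7 samples (0.0336 to 0.141%). It was found in 4 naïve samples of 3 mice, 3 CFA samples of 3 mice and none of 29 EAE samples, which would allow up to 10.3% of independent samples, while 0 of 6 EAE mice allows up to 50%. The naïve values were 0.0723% in mouse 563 at 8 dpi, 0.0916 and 0.114% in mice 559 and 560 at 19 dpi, and 0.141% in mouse 563 at 29 dpi. The CFA values were 0.0961% in mouse 547 at 8 dpi and 0.0336 and 0.0936% in mice 543 and 546 at 14 dpi. No mouse held it in a pair of consecutive samples: naïve mice gained it in 4 and lost it in 3 intervals, and CFA mice gained and lost it in 3 each. Its first sequence (380 counts) was found in 4 naïve samples and 1 CFA sample, and its second (94 counts) in 2 CFA samples. None of its comparisons between treatments passed by edgeR or by the exact tests, with adjusted exact permutation p of 0.338 for EAE against naïve and 0.739 for EAE against CFA in the mean per mouse. DESeq2 called it lower in EAE than in naïve mice at 8, 19 and 29 dpi (adjusted p = 0.0276, 0.0137 and 0.0121) and than in CFA mice at 8 and 14 dpi (0.0139 and 0.0151). Between CFA and naïve mice DESeq2 called it in both directions, higher in CFA mice at 14 dpi (0.0367) and lower at 19 and 29 dpi (0.0445 and 0.0290). Each of these 8 calls rested on 1 or 2 mice with counts. At these levels the floor of the EAE samples, up to 0.0326% in the shallowest one, lies just under the lowest value measured.

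**Figure D4:**
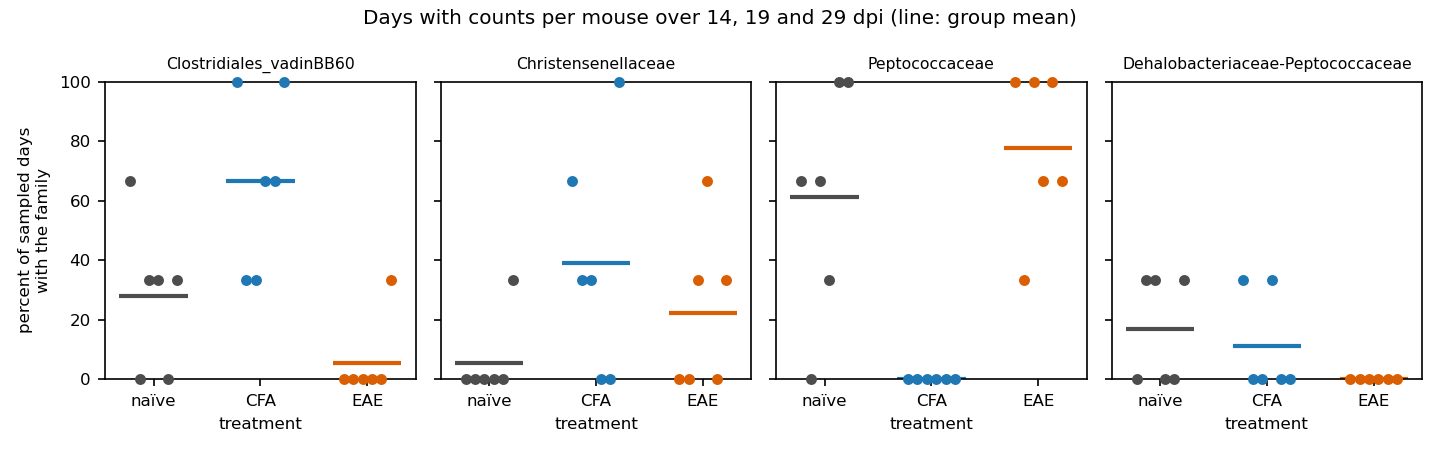
Percent of a mouse's sampled days over 14, 19 and 29 dpi on which each family had counts (y axis), with 1 point per mouse by treatment (x axis) and a line at the group mean. For Peptococcaceae all CFA mice are at 0 and all EAE mice above it, and for Clostridiales_vadinBB60 all CFA mice are above 0 and 5 of 6 EAE mice at 0.

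Read against all families, the members' calls were as follows. Over 8 to 29 dpi edgeR called 9 of 16 member tests between EAE and CFA mice, against 38.0% of all 92 family tests. It called 6 of 16 between CFA and naïve mice, against 15.2%, and 3 of 16 between EAE and naïve mice, against 20.7%. DESeq2 called 12, 9 and 7 of 16 in the same pairs, against 46.4, 27.4 and 34.5% of all its tests. At -2 dpi DESeq2 also called Clostridiales_vadinBB60 higher in EAE and in CFA than in naïve mice (adjusted p = 2.7e-09 and 6.6e-11). There it called Peptococcaceae lower in CFA than in naïve mice and higher in EAE than in CFA mice (2.2e-27 and 3.8e-27). Each of these calls, made before any treatment, involved a group wholly at 0. With the compared groups alone edgeR tested fewer and called 7 of 10, 3 of 9 and 0 of 6, against 38.1, 18.6 and 18.3%. Of the 6 calls between CFA and naïve mice 4 were Peptococcaceae, as were 4 of the 9 between EAE and CFA mice. The 3 comparisons share their groups in pairs and are not independent. In the change since -2 dpi edgeR called 3 of 16 between EAE and naïve mice (14.1% of all tests), 0 between EAE and CFA mice (7.61%) and 0 between CFA and naïve mice (0%). In 8, 12 and 12 of these 16 tests the fitted difference was undefined, since groups at 0 pulled it both ways, so that 8, 4 and 4 tests could pass, the 4 in the last pairs all of Clostridiales_vadinBB60. At an unadjusted p under 0.05, 2 passed between EAE and CFA mice (19.6% of all tests) and 4 between CFA and naïve mice (15.2%). DESeq2 called 5 of 16 in each pair, against 22.6, 27.4 and 11.9%, in the last pairs more than the 4 tests that were defined. Against -2 dpi within a treatment edgeR called no member, against 2.17% of all tests in naïve, 5.43% in CFA and 4.35% in EAE mice. At an unadjusted p under 0.05, 8, 5 and 5 of 16 member tests passed there by edgeR, against 23.9, 28.3 and 23.9% of all tests. DESeq2 called 8, 5 and 5 after adjustment, against 20.2, 20.2 and 22.6%. With the families joined edgeR called 2 of 12 in naïve mice, against 6.82%.

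The exact tests gave fewer calls. In the mean percent per mouse over 14, 19 and 29 dpi, 2 of 4 members passed between EAE and CFA mice (34.6% of 26 families), 0 between EAE and naïve mice (30.8%) and 0 between CFA and naïve mice (0%). In the share of days, 2 of 4 passed between EAE and CFA mice (19.2% of families), against 0 in both other pairs (7.69% for EAE and naïve, 0% for CFA and naïve). In percents by day over 8 to 29 dpi, 1 of 16 member tests passed between CFA and naïve mice (5.77% of 104), 0 between EAE and CFA (12.5%) and 0 between EAE and naïve mice (13.5%). In presence by day, Fisher's exact test called 1 of 16 between EAE and CFA mice (3.85% of 104) and none in the other pairs (0% in each). Against -2 dpi, no member passed an exact test in any treatment, where the background was 8.65% in EAE and 0% in CFA and naïve mice.

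By sequence, with primer variants merged, edgeR called the Peptococcaceae sequence lower in CFA than in naïve mice at -2, 8, 14 and 19 dpi (adjusted p from 0.0269 to 0.0394) and higher in EAE than in CFA mice at 14 and 19 dpi (0.0461 and 0.0335). The second sequence of Clostridiales_vadinBB60 was called lower in EAE than in naïve mice at 29 dpi (adjusted p = 0.0486), on a single naïve mouse with counts. Over 8 to 29 dpi that is 1 member call between EAE and naïve mice (12.3% of 808 tests), 2 between EAE and CFA mice (8.29%) and 3 between CFA and naïve mice (6.93%). At each day 7 of the 202 sequences tested were members, too few to set their calls apart from these shares.

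The other 8 families of the order, 7 of them with enough samples to test, gave 28 tests per comparison over 8 to 29 dpi. Of these edgeR called 6 higher and 1 lower in EAE than in naïve mice, 8 higher and 2 lower in EAE than in CFA mice, and 1 higher and 0 lower in CFA than in naïve mice. At -2 dpi none of the 7 was called in any pair.

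Clinical score, a grade of paralysis, could be set against Peptococcaceae in the EAE mice at 19 and 29 dpi, the only family and days with counts in at least 4 of 6 mice. At 29 dpi the mice with the lowest scores, 2.25 (mouse 589) and 2.75 (mouse 588), held 1.79% each. The mouse with the highest score, 3.75 (mouse 593), held 0.473%. Pearson's r was -0.82 (exact permutation p = 0.0389, adjusted 0.0778 over 2 relations) and Spearman's rho -0.84 (exact permutation p = 0.0444, adjusted 0.0889) over 6 mice. Without the 2 mice farthest from the median score r was -0.62 over the 4 left, too few for the exact test to decide. At 19 dpi r was -0.21 (exact permutation p = 0.711) and rho -0.22 (0.678).

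Of the 88 samples 28 held no member family, 39 held 1, 17 held 2, 4 held 3 and 0 held all 4. Clostridiales_vadinBB60 and Christensenellaceae were found together in 8 samples, and Clostridiales_vadinBB60 and Peptococcaceae in 9. As a description over the 88 samples, which share mice and treatments, the percents most like those of Clostridiales_vadinBB60 were Anaeroplasmataceae (Spearman's rho 0.35) and Lachnospiraceae (0.34). For Peptococcaceae they were Erysipelotrichaceae (0.38) and Muribaculaceae (0.32). For Christensenellaceae they were Lachnospiraceae (0.23) and Clostridiales_vadinBB60 (0.23), and for Dehalobacteriaceae-Peptococcaceae they were Mogibacteriaceae/Anaerovoracaceae (0.31) and Coriobacteriaceae (0.18).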

How the data were processed

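The V3–V4 part of bacterial 16S rRNA genes was amplified from fecal DNA. The authors made the deposited counts per ASV and sample with DADA2 (version not given in the sources used here), with reads truncated, pairs merged and chimeras removed, and named ASVs by hand from 4 databases. Primer sites stayed in the sequences, so 1 organism appears as several ASVs that were named separately. The deposited table also gives a clinical score per sample. No depth scaling had been applied to the counts. The 2 water controls in the labels were not analysed here. Members and lists were chosen with earlier results of these data known.

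Counts were summed per family and divided by the sample's total. Families found in 3 or more samples entered edgeR 4.0.16 (R 4.3.3, quasi-likelihood, 15 groups, TMMwsp factors from genus counts), Benjamini-Hochberg adjusted at 0.05. Percents, mouse means and shares of days were compared by two-sided exact permutation or sign-flip tests and presence by Fisher's exact test, adjusted over 26 families. All 4 families, up to 3 sequences of each and, for likeness, 2 families each were named, the fourth sequence of Clostridiales_vadinBB60 after its values were seen. DESeq2 1.42.0, other filters, blocks and left-out mice were alternatives. Code was tested on simulated data. Same-numbered samples of naïve and CFA mice come from the same animal, and their deviations from group means had a median correlation of 0.0076 over families, against -0.0061 for different mice. Treatment was assigned to whole cages and the cage of each mouse is not given, so mice are not independent replicates of a treatment. The exact tests measure the spread between these mice only. The main edgeR fit takes its spread from all samples used, repeat samples of the same mice included, without a block.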

Additional observations from a re-analysis of the deposited data

Results flagged for a closer look

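In the gap test used here the distance of the highest or lowest mouse to its neighbour is set against the range. Its chance rate of about 1 in 20 groups does not hold where many mice share a value of 0. A group with counts in a single mouse is always marked, so the number marked cannot be set against that rate. Of 32 groups with counts of a member family 10 were marked, and in 7 of them every other mouse was at 0. For Clostridiales_vadinBB60 these were naïve mouse 558 at 19 dpi (0.232%), naïve mouse 560 at 29 dpi (0.301%), CFA mouse 546 at 19 dpi (0.291%) and EAE mouse 595 at 29 dpi (0.0972%). For Christensenellaceae they were naïve mouse 563 (0.113%) and EAE mouse 593 (0.0637%), both at 19 dpi. For Dehalobacteriaceae-Peptococcaceae they were naïve mouse 563 at 8 dpi (0.0723%) and 29 dpi (0.141%), CFA mouse 547 at 8 dpi (0.0961%) and CFA mouse 546 at 14 dpi (0.0936%).

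The change of Clostridiales_vadinBB60 since -2 dpi differed between EAE and naïve mice at 8, 14 and 19 dpi, with fitted log2 differences of -17.26, -17.31 and -15.67 (edgeR adjusted p = 0.00962, 0.00877 and 0.00859). At 19 dpi the call was lost with Christensenellaceae joined (adjusted p = 0.0534). These sizes depend on groups that were wholly at 0 and are no estimate of a fold.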

How the results depend on the processing

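Samples with counts kept them at a lower depth: at 9202 counts per sample the 4 families were found in the same 27, 13, 38 and 7 samples as before. Lowering the depth cannot turn a 0 into a presence, so whether the zeros depend on depth was not tested. Between EAE and naïve mice edgeR called 3 of 16 member tests, DESeq2 7, and edgeR 0 of 6 when fitted on the compared groups alone, where CFA and naïve mice gave 3 of 9 in place of 6 of 16. DESeq2 called 12 between EAE and CFA mice and 9 between CFA and naïve mice (edgeR 9 and 6). Against -2 dpi edgeR called 0, and DESeq2 8, 5 and 5 in naïve, CFA and EAE mice. With both families that share sequences joined, naïve mice gave 2. In the change since -2 dpi DESeq2 called 5 in each of the 3 pairs (edgeR 3, 0 and 0), where 8, 4 and 4 of 16 tests were defined. With the replicate block edgeR called 0 between EAE and naïve mice by title number, where 8 dpi alone could be fitted for EAE mice, and 1 by subject number, and the block changed no other count.

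Joining both families turned the EAE minus naïve value of Christensenellaceae to -0.26 (log2, 29 dpi), -0.0681 (mean percent per mouse) and -5.56 (percent of days), and 14 and 19 dpi alone turned its mean percent to -0.00406. For Peptococcaceae the EAE minus naïve value became 0.150 on the log10 scale, and its share of days -8.33 over 14 and 19 dpi alone and -4.17 over all 5 days. None of these values passed a test in either direction apart from the 29 dpi call of Christensenellaceae under its own name.

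Between EAE and CFA mice the 2 calls in mean percent fell to 0 with the median of a mouse's days, and to 1 to 2 with a mouse left out. The 2 calls in share of days fell to 1 over 14 and 19 dpi, to 1 with the families joined, and to 1 to 2 with a mouse left out. The single Fisher call was 0 to 1 with a mouse left out, and percents by day gave 1 call on the log10 scale and 1 with the families joined, against 0. Between CFA and naïve mice both measures gave 0 to 1 calls with a mouse left out (1 without naïve mouse 559), and the share of days gave 1 over all 5 days. With deposited ASVs the sequence calls fell from 1, 2 and 3 to 0 in every pair, and with total counts alone the call between EAE and naïve mice fell to 0. Without the 2 mice farthest from the median score r became 0.0775 at 19 dpi and -0.62 at 29 dpi. The cause of these changes was not tested, other than that fewer mice or sequences with fewer samples each entered some tests. Group sizes of 5 to 6 mice limit all of them.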
